A study of Mus musculus with 40 samples.

Results

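Binding of the corepressors SMRT and NCoR and of the histone deacetylase HDAC3 was examined at 10 genes of bile acid metabolism in mouse liver: Cyp7a1, Cyp8b1, Cyp27a1 and Cyp7b1 (synthesis), Baat (conjugation), Abcb11 and Slc10a1 (transport), and Nr1h4, Nr0b2 and Fgfr4 (regulation). These are 10 of the 21938 protein-coding genes in the annotation. A peak was counted when its centre fell inside one of the genes or within 50 kb of either end, and 28 of 10654 SMRT peaks, 85 of 35138 NCoR peaks and 43 of 14462 HDAC3 peaks did so. No peak fell in the windows of more than 1 of the genes.

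The lists came from ChIP-seq, in which chromatin fragments bound by a protein are recovered with an antibody and sequenced. Livers were taken from male mice fed ad libitum, on the C57BL/6 background, that carried loxP sites around Bcl6 on both alleles (Bcl6 fl/fl) without Cre, so Bcl6 was intact in every sample used; age is not given in the sources used here. Each list is 1 set of peaks for 3 biological replicates, found on their pooled reads and kept by enrichment over input tested on the counts of each library, and it gives positions only, with neither a height nor a value per animal. Replicate error and depth behind a peak were therefore not available, no test between libraries was possible, and a peak missing from a list is a site not called rather than a site without binding. Of the 40 samples in the series, 9 are the ChIP libraries behind these lists. The other 31 were not analysed here. Among them, 1 is titled as the input of fed wild type liver for SMRT, NCoR and HDAC3, so the 3 lists may rest on the same input.

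Bile acids are made from cholesterol in hepatocytes by a classical route that begins with CYP7A1 and an alternative route that begins with CYP27A1, are joined to taurine or glycine, and are pumped into bile. The nuclear receptor FXR (Nr1h4) senses them and limits their synthesis, through the small heterodimer partner SHP (Nr0b2) within the hepatocyte and through an intestinal fibroblast growth factor that acts on FGFR4. SMRT and NCoR are related adaptor proteins that many nuclear receptors and other DNA-bound repressors recruit, and both bind and activate HDAC3, which removes acetyl groups from histones.

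NCoR peaks were called at an annotated promoter of every gene but Fgfr4, and all 3 proteins sat together at the promoters of Cyp7a1, Cyp8b1, Abcb11 and Nr0b2. At Baat, Slc10a1 and Nr1h4 that promoter belonged to an internal start site. An NCoR peak was called shared when a SMRT centre and an HDAC3 centre both lay within 200 bp of its own centre. Promoters reached from 1000 bp before a transcription start site (TSS) of the gene to 100 bp after it. An NCoR peak lay at a promoter of 9 of the 10 genes, against 16.9% of all protein-coding genes, and a shared site at a promoter of 4 of 10, against 2.34%. A SMRT promoter peak was found for 4 of the 10 (2.96% of all genes) and an HDAC3 promoter peak for 6 of the 10 (5.42% of all genes). These shares are over all protein-coding genes, and no set limited to genes expressed in liver was compared.

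The promoter windows below illustrate this result: the first 3 are shared sites, and Cyp27a1 and Nr1h4 are promoter peaks that lacked SMRT, shown for contrast and added after their positions were seen. Each is up to 200 bases around the NCoR peak centre, read 5′ to 3′ on the strand of the gene from the RefSeq sequence of GRCm38 (mm10). Capitals mark a match to 1 of the 14 motifs searched, which are spelled out further on; 3 bases of UTR were trimmed from the Cyp8b1 window, and the Cyp7b1 window is left out because 135 of its bases are UTR. Every printed window holds a match, but of the 9 promoter windows 2 held none, and of the 4 shared ones 3 held a match, so the printed windows do not show how often matches occur.
Cyp8b1, chr9:121916306-121916502, minus strand: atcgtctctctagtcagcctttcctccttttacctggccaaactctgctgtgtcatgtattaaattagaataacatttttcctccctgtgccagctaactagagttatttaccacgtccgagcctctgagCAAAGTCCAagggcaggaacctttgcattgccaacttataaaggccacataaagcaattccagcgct
Abcb11, chr2:69342631-69342830, minus strand: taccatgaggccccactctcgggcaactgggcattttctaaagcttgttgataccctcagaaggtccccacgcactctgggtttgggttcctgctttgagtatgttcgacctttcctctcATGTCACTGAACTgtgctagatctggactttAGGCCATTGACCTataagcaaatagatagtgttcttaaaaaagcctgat
Nr0b2, chr4:133552976-133553175, plus strand: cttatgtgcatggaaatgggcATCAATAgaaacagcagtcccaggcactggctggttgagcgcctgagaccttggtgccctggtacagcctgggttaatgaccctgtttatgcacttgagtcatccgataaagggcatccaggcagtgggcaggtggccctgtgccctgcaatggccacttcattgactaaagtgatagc
Cyp27a1, chr1:74712776-74712975, plus strand: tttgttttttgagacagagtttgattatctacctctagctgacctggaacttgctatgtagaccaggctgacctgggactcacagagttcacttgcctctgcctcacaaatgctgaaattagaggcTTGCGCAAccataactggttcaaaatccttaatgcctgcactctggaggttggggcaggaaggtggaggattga
Nr1h4, chr10:89506759-89506958, minus strand: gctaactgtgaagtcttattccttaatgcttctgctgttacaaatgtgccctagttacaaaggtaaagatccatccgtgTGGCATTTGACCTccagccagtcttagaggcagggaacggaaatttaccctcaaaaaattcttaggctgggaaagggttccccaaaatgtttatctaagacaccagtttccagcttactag
The Cyp8b1 window held the HNF4 half-site, the only such match among the 85 NCoR peaks. The Abcb11 window held a pair of inverted repeats of the kind FXR binds with its partner RXR, and the Nr0b2 window an HNF6/CUX2 match. Only repeats with at most 2 mismatches were counted, so the lack of such a match at Nr0b2 does not cover weaker variants. The Cyp27a1 window held a C/EBP match read on both strands, and the Nr1h4 window a direct repeat with 2 mismatches.

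**Figure D1:**
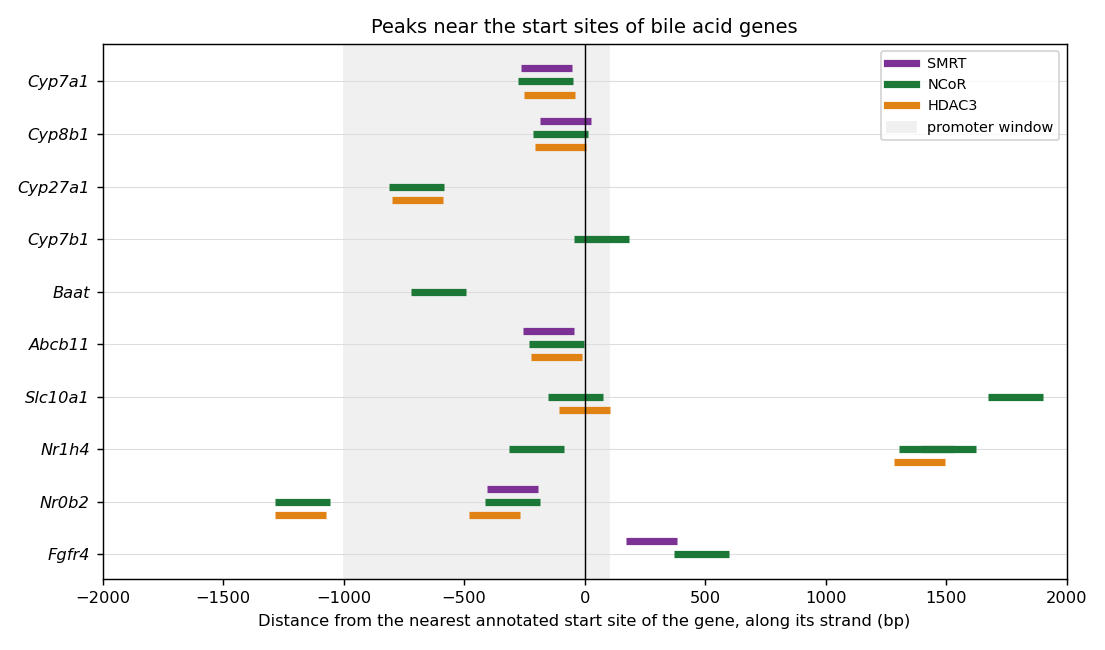
Peaks within 2 kb of a start site of the 10 genes; each bar is a called peak of SMRT, NCoR or HDAC3, placed by its distance in bp from the nearest start site of the same gene, along the gene's strand. Within the shaded promoter window all 3 bars stack at Cyp7a1, Cyp8b1, Abcb11 and Nr0b2, HDAC3 joins NCoR at Cyp27a1 and Slc10a1, and NCoR stands without a partner at Cyp7b1, Baat and Nr1h4. Outside it, HDAC3 joins NCoR upstream of Nr0b2 and 1418 bp downstream of an Nr1h4 start site. The Fgfr4 NCoR and SMRT bars, also outside it, overlap in position only at their ends, with centres 209 bp apart. The Nr1h4 bars downstream of 0 belong to different start sites of that gene.

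Cyp7a1 encodes the rate-limiting enzyme of the classical route. It lies on chromosome 4 (6265612 to 6275633, minus strand) and had 5 SMRT, 9 NCoR and 6 HDAC3 peaks. Of the 9 NCoR peaks, 5 were shared, 1 had HDAC3 without SMRT and 3 stood without a partner. The 5 shared sites, the most of any of the 10 genes, lay 162 bp and 3064 bp upstream of the TSS and 17437, 29350 and 36412 bp downstream of it, past the end of the gene. For all of them Cyp7a1 was the gene with the nearest protein-coding TSS. Among all protein-coding genes, 535 had at least as many shared sites in their window.

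Cyp8b1 encodes the sterol 12α-hydroxylase that directs synthesis towards cholic acid. This short gene on chromosome 9 (121914356 to 121916305, minus strand) had 4 SMRT, 14 NCoR and 10 HDAC3 peaks, and its 13.7 NCoR peaks per 100 kb of window were the highest density of the 10 genes. Its shared sites lay 98 bp and 7322 bp upstream of the TSS and 10581 and 12490 bp downstream, the last 2 in introns of Ackr2, which encodes a chemokine receptor. A further 5 NCoR peaks had HDAC3 only, 3 of them nearest to Cyp8b1, at 3191 bp downstream and at 9150 and 10541 bp upstream. Of its 14 NCoR peaks, 5 were nearest to the Cyp8b1 TSS, 5 to Fam198a and 4 to Ackr2. The HDAC3 peak 11881 bp downstream of the TSS, also in Ackr2, was the only HDAC3 peak at these genes with no NCoR centre within 200 bp; the nearest was 609 bp away.

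Cyp27a1 encodes the mitochondrial sterol 27-hydroxylase. Located on chromosome 1 (74713574 to 74737892, plus strand), it had 3 SMRT, 7 NCoR and 5 HDAC3 peaks. The promoter peak, 698 bp upstream, had HDAC3 but no SMRT peak. The shared sites lay 8294 bp downstream of the TSS in an intron, 14596 bp upstream in a UTR of Ttll4, and 37341 bp downstream, closest to the TSS of Prkag3.

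Cyp7b1 encodes the oxysterol 7α-hydroxylase of the alternative route. This long gene on chromosome 3 (18071950 to 18243338, minus strand) had 2 SMRT, 7 NCoR and 2 HDAC3 peaks and no shared site. The partners were instead found apart: 2 NCoR peaks had SMRT, at 77100 and 103374 bp into the gene, and 2 had HDAC3, at 51817 bp into it and 7955 bp upstream. NCoR at the promoter, 69 bp downstream of the TSS, had neither. Over its window of 271 kb it had 2.58 NCoR peaks per 100 kb, the lowest density of the 10.

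The 4 synthesis genes together held 37 of the 85 NCoR peaks, of which 12 were shared, 10 had HDAC3, 2 had SMRT and 13 stood without a partner. Within this group the counts were uneven, with 5, 4, 3 and 0 shared sites at Cyp7a1, Cyp8b1, Cyp27a1 and Cyp7b1.

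**Figure D2:**
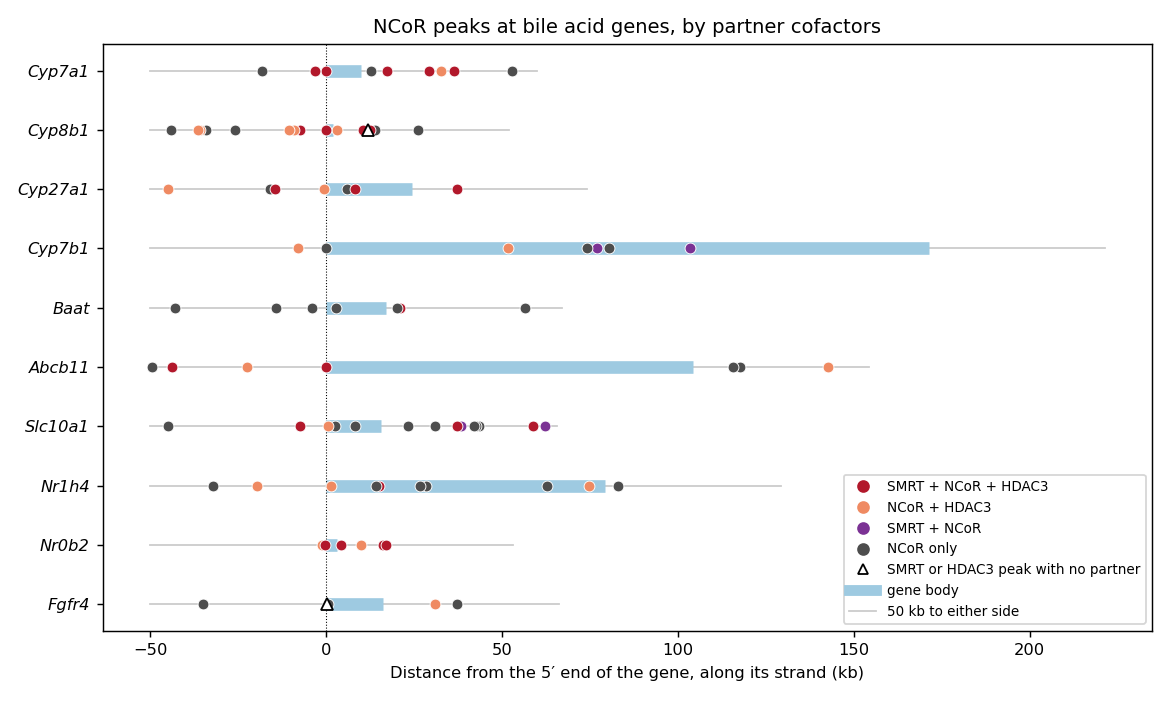
NCoR peaks at each gene, placed by distance in kb from the 5′ end of the gene along its strand; blue bars are gene bodies, grey lines the 50 kb on either side, and colour gives the partners within 200 bp. Open triangles are the 2 other peaks without an NCoR centre in reach, HDAC3 at Cyp8b1 and SMRT at Fgfr4. Cyp7b1 peaks lie mostly within the gene, and those of Cyp7a1, Cyp8b1 and Slc10a1 lie mostly outside it.

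Baat encodes the enzyme that joins bile acids to taurine or glycine. On chromosome 4 (49489422 to 49506557, minus strand), it had 1 SMRT, 7 NCoR and 1 HDAC3 peaks, which met at a single shared site 17504 bp downstream of an internal TSS. The other 6 NCoR peaks stood without a partner. They included the promoter peak, 607 bp upstream of that internal TSS and 2830 bp into the gene, and a peak 178 bp from the start site of Mrpl50, which encodes a mitochondrial ribosomal protein.

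Abcb11 encodes the bile salt export pump of the canalicular membrane, a classical FXR target. Located on chromosome 2 (69238282 to 69342616, minus strand), it had 2 SMRT, 7 NCoR and 4 HDAC3 peaks. No peak centre lay inside the gene itself. The only NCoR peak for which its TSS was the nearest was the shared promoter site, 115 bp upstream. The other shared site was 43781 bp upstream, in an intron of Dhrs9, a retinol dehydrogenase gene, and both shared sites held an inverted repeat.

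Slc10a1 encodes NTCP, the sodium-coupled carrier that takes bile acids up from blood. It lies on chromosome 12 (80953183 to 80968705, minus strand) and had 5 SMRT, 14 NCoR and 4 HDAC3 peaks, of which 3 were shared, 1 had HDAC3, 2 had SMRT and 8 stood without a partner. The shared site nearest to it lay 7416 bp upstream of the TSS. Its promoter peak, 37 bp upstream of an internal TSS and 589 bp into the gene, had HDAC3 without SMRT. Of the 14 NCoR peaks only 4 were nearest to Slc10a1, and 9, with 2 of the shared sites, were nearest to Srsf5, which encodes a splicing factor. The window of this upstream shared site is printed because it held 2 motif matches, HNF6/CUX2 and C/EBP, again in capitals and on the strand of the gene in GRCm38.
Slc10a1, chr12:80976021-80976220, minus strand: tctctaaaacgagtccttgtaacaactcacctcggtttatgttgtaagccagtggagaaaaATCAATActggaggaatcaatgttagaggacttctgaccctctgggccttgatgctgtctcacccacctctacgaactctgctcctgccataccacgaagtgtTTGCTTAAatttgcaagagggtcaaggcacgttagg
The carrier and the pump thus differed in number of NCoR peaks, 14 against 7, and 12.1 against 3.43 per 100 kb, with 3 and 2 shared sites.

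Nr1h4 encodes FXR. It lies on chromosome 10 (89454234 to 89533585, minus strand) and had 1 SMRT, 10 NCoR and 4 HDAC3 peaks. Its promoter peak, 201 bp upstream of an internal TSS and 26726 bp from the 5′ end of the gene, had no partner, and no NCoR peak lay at the promoter of the outermost 5′ end, where the nearest was 1418 bp downstream and had HDAC3. The single shared site lay 11911 bp upstream of the internal TSS, within the gene. Of the 10 NCoR peaks, 7 were within the gene and 6 had no partner.

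Nr0b2 encodes SHP, an FXR-induced corepressor that lacks a DNA-binding domain. This short gene on chromosome 4 (133553376 to 133556536, plus strand) had 4 SMRT, 6 NCoR and 6 HDAC3 peaks, and it was the only one of the 10 where every NCoR peak had a partner. The shared sites lay 300 bp upstream of the TSS and 4152, 16149 and 16993 bp downstream of it, and the remaining NCoR peaks, 1171 bp upstream and 9987 bp downstream, had HDAC3. With 4 shared sites it equalled Cyp8b1, a number reached or passed by 1113 protein-coding genes, while its 6 NCoR peaks were reached or passed by 5254.

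Fgfr4 encodes the receptor through which the intestinal growth factor represses Cyp7a1. On chromosome 13 (55152640 to 55168759, plus strand), it had the fewest peaks, 1 SMRT, 4 NCoR and 1 HDAC3, with no shared site. Its NCoR peak centre nearest the TSS lay 485 bp downstream, outside the promoter as defined here, and its SMRT peak 276 bp downstream. The called intervals of these peaks overlapped at their ends. The distance of 209 bp between their centres is just beyond the 200 bp limit, so both were classed as standing without a partner. This was the only SMRT peak of the 28 with no NCoR centre in reach. The 3 regulators together held 20 NCoR peaks, of which 5 were shared, 6 had HDAC3, none had SMRT only and 9 stood without a partner.

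Taking the 10 genes together, 23 of the 85 NCoR peaks were shared (27.1%, 95% exact binomial interval 18.0 to 37.8), against 24.9% of all NCoR peaks. A further 19 had HDAC3 without SMRT (22.4%, 14.0 to 32.7), against 14.8%, and 4 had SMRT without HDAC3 (4.71%, 1.30 to 11.6), against 4.16%. The remaining 39 stood without a partner (45.9%, 35.0 to 57.0), against 56.1% overall. All 4 intervals contained the overall share, so at this number of peaks no difference in class shares from NCoR peaks at large was detectable. The intervals cover counting error only, and treat peaks of 1 gene as independent. Of the 43 HDAC3 peaks 42 had an NCoR centre in reach (97.7%, 96.5% over the whole list), and so did 27 of the 28 SMRT peaks (96.4%, 95.7% over the whole list).

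**Figure D3:**
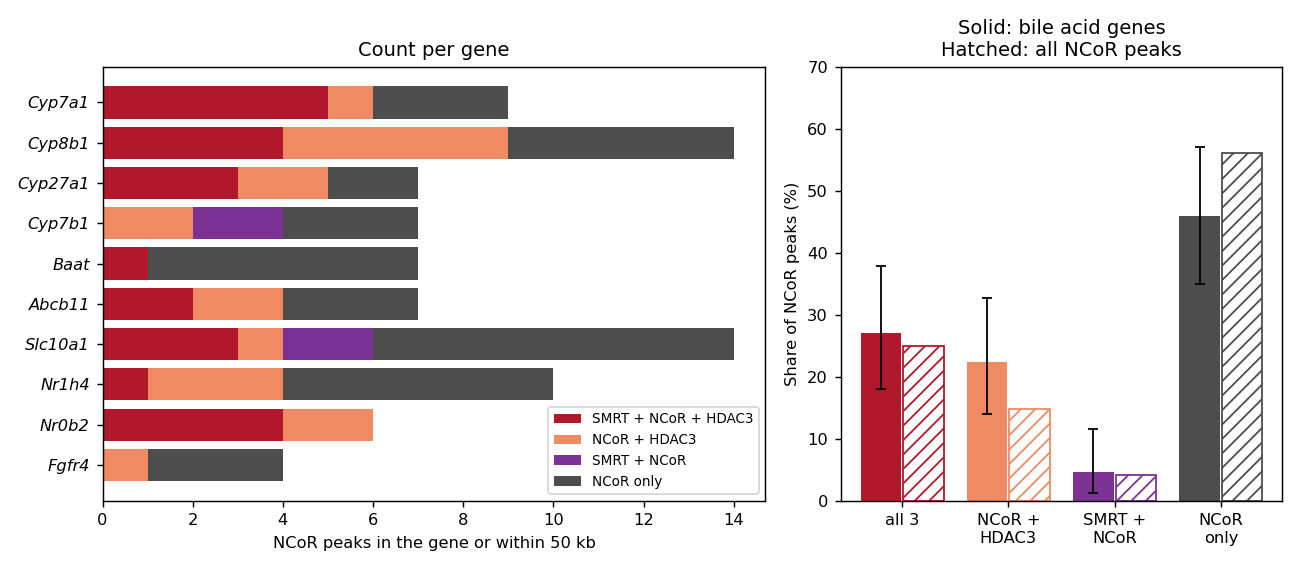
Left, NCoR peaks per gene split by partners (counts). Right, share of NCoR peaks in each group in percent; solid bars are the 85 peaks at the bile acid genes with 95% exact binomial intervals, hatched bars all 35138 NCoR peaks. The shared class is longest at Cyp7a1 and absent at Cyp7b1 and Fgfr4, and each interval spans its hatched bar.

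When the nearest protein-coding TSS was used to assign peaks, 45 of the 85 NCoR peaks (52.9%) belonged to 1 of the 10 genes and 40 to a neighbour. Of the 45, 15 were shared (33.3%, 20.0 to 49.0) and 17 had no partner (37.8%, 23.8 to 53.5). Of the 40, 8 were shared (20.0%, 9.05 to 35.6) and 22 had no partner (55.0%, 38.5 to 70.7). These intervals overlapped. The neighbours with at least 3 peaks were Srsf5 with 9, Fam198a with 5, Ackr2 with 4, Dhrs9 with 3 and Gas2l3 with 3.

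A promoter of any protein-coding gene held 15 of the 85 peaks (17.6%, 10.2 to 27.4), against 10.4% of all NCoR peaks. The 85 were taken around protein-coding genes, so every window held a promoter. The share over all NCoR peaks includes peaks at any distance from a gene, so the sets are unlike. Of the 15 peaks, 9 were at promoters of the 10 genes: 4 shared, 2 with HDAC3 and 3 without a partner. The other 6 were at promoters of neighbours, where none was shared, 2 had HDAC3 and 4 had no partner. The 9 promoter windows of the bile acid genes had a median GC content of 46.5%, from 34.0% at Baat to 64.5% at Cyp7b1, and over all 3659 NCoR peaks at promoters the median was 61.0%. Of the 85 NCoR peaks, 48 were intergenic, 32 intronic, 3 in UTRs and 2 in coding exons. These places were not counted over all NCoR peaks, so no comparison is made.

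All 10 genes had at least 1 NCoR peak in the window (72.3% of all protein-coding genes did), at least 1 SMRT peak (43.1%) and at least 1 HDAC3 peak (52.1%), and 8 of 10 had a shared site (39.2%). The median number of NCoR peaks was 7.0, from 4 to 14, against 2.0 over all protein-coding genes and 4.0 over the 15868 with any NCoR peak. The 90th percentile over all genes was 9.0, which Cyp8b1, Slc10a1 and Nr1h4 exceeded. Since long genes have long windows, density was compared as well, and the median was 5.72 NCoR peaks per 100 kb at the 10 genes and 1.76 over all genes, with all 10 above the latter. The median number of shared sites was 2.5 against 0, of SMRT peaks 2.5 against 0, and of HDAC3 peaks 4.0 against 1.0. Many other genes had as many NCoR peaks: 433 had at least the 14 of Cyp8b1 and Slc10a1, and 4018 had at least the 7 of Cyp27a1, Cyp7b1, Baat and Abcb11.

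**Figure D4:**
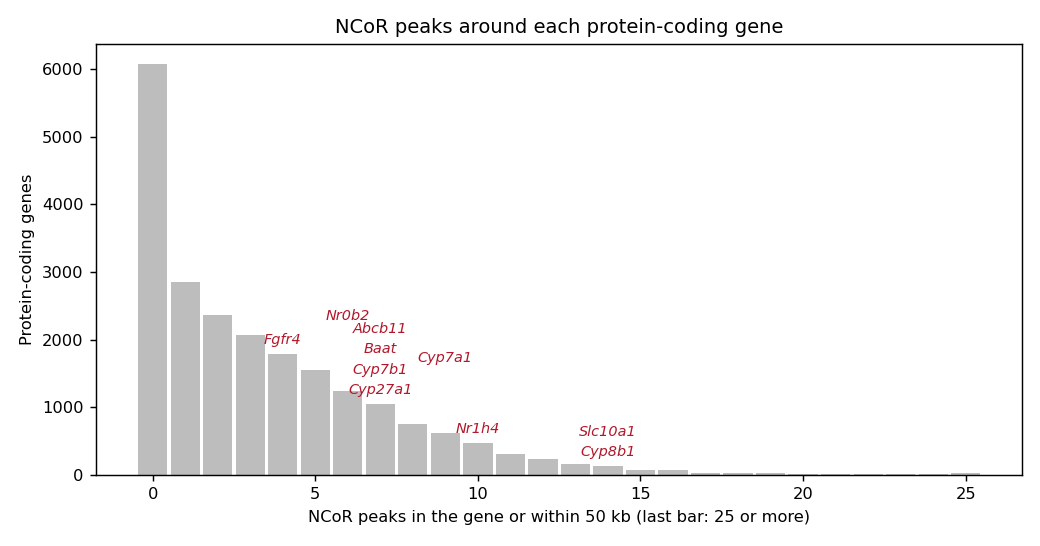
Protein-coding genes (vertical axis, number of genes) by the number of NCoR peaks in the gene or within 50 kb (horizontal axis, with 25 or more in the last bar). Names mark the bar of each bile acid gene; all lie above the median of 2.0 and within the populated part of the distribution.

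Where the proteins met, their peak centres nearly coincided. The NCoR and SMRT centres were 16.0 bp apart at the median over 27 pairs, from 0 to 62 bp, and the NCoR and HDAC3 centres 17.5 bp over 42 pairs, from 0 to 77 bp. Over all such pairs the medians were 24.0 and 23.0 bp. The NCoR peaks also lay near one another. The next NCoR peak was 3378 bp away at the median, from 575 to 30482 bp, against 6545 bp over the whole list. Of the 85, 67 had another within 10 kb, a count not made over the whole list.

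The 200 bp around each NCoR centre was searched on both strands for 10 short motifs without mismatch: FOX (TGTTTAC), the HNF4 half-site (CAAAGTCCA), NR5A2/ERR (CAAGGTCA), HNF6/CUX2 (TATNGAT), HNF1 (GTTAATNAT), BCL6/STAT (TTCCNNGAA), C/EBP (TTNNGCAA), ETS (CCGGAAGT), REV-ERB/ROR (AANTAGGTC) and the E-box (CACGTG). It was also searched for 4 arrangements of a pair of the nuclear receptor half-site AGGTCA with at most 2 mismatches in all: IR1, facing each other with 1 base between, and DR1, DR2 and DR4, in the same direction with 1, 2 and 4 bases between. The half-site is contained in the NR5A2/ERR motif and in part in the REV-ERB/ROR motif, so these can overlap the repeats. At least 1 motif was found in 62 of the 85 windows (72.9%), against 59.9% of all NCoR windows of the same length.

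C/EBP, the motif of a family of liver-enriched leucine zipper factors, was the most frequent, in 25 of 85 windows (29.4%, 20.0 to 40.3), against 19.1% overall. Of these 25 windows 4 were shared sites. HNF6/CUX2 matches were in 14 (16.5%, 9.31 to 26.1), against 8.44%, and 4 of those were shared sites. These were the only 2 motifs for which the interval left out the overall share, and with 14 motifs compared and members chosen with earlier results known they are a description. FOX matches were in 8 (9.41%, against 7.74%), 4 of them at shared sites, 2 of those at Cyp7a1. NR5A2/ERR, a motif of the Cyp7a1 activator LRH-1, was in 6 (7.06%, against 4.15%), with 2 each at Cyp27a1 and Nr0b2, 1 each at Slc10a1 and Nr1h4, and none at Cyp7a1. In 100 bp windows this motif was in 2 (2.35%, against 2.57%), so its higher share did not hold there. Only the exact string CAAGGTCA was counted, so the absence at Cyp7a1 does not cover variants of this motif.

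The FXR-type repeat IR1 was in 6 windows (7.06%, 2.63 to 14.7), against 4.14%. These lay 115 and 43781 bp upstream of Abcb11, 4152 bp downstream of the Nr0b2 TSS, 10541 bp upstream of Cyp8b1, 16667 bp downstream of a Baat TSS and 32164 bp upstream of Nr1h4 itself, and the first 3 were shared sites. In the Abcb11 promoter window printed above, the match nearer the TSS differed from the repeat at 1 position, and it was the only match of the 85 windows at that stringency (1.18%, against 0.603%). The direct repeats DR1, DR2 and DR4 were in 8, 8 and 10 windows (9.41%, 9.41% and 11.8%), against 12.9%, 7.79% and 6.99%. With at most 1 mismatch they were in 0, 0 and 1 windows, against 2.73%, 1.26% and 1.02% of all NCoR windows. The BCL6/STAT motif was in 2 windows (2.35%, against 4.16%), both around Slc10a1 and both without a partner, 41865 bp downstream and 44855 bp upstream. HNF1 and REV-ERB/ROR were in 2 windows each (2.35%, against 1.64% and 1.21%), and the HNF4 half-site, ETS and the E-box in 1 each (1.18%, against 2.09%, 0.757% and 4.16%).

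**Figure D5:**
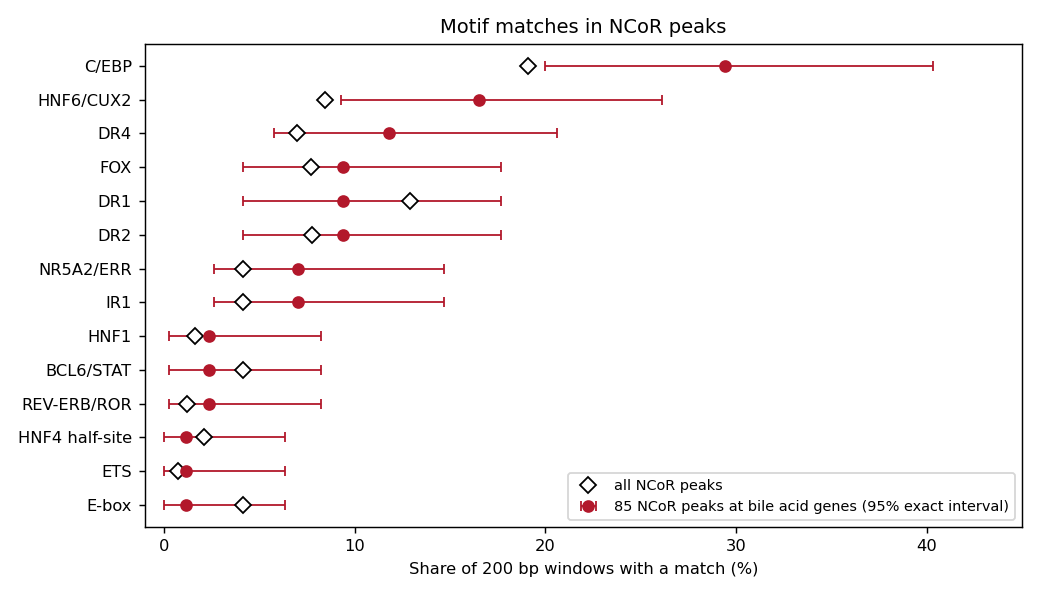
Share in percent of 200 bp NCoR windows with a match to each motif; red points with 95% exact binomial intervals are the 85 windows at the bile acid genes, open diamonds all 35138 NCoR windows. The diamond falls outside the interval for C/EBP and HNF6/CUX2 only.

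A wider list held 31 other genes of bile acid synthesis, transport and regulation. All 31 had an NCoR and an HDAC3 peak in their window (72.3% and 52.1% of all protein-coding genes), 30 a SMRT peak (43.1%) and 29 a shared site (39.2%), with medians of 8.0 NCoR peaks and 2.0 shared sites per gene. NCoR lay at a promoter of 19 (61.3%, against 16.9% of all genes) and a shared site at a promoter of 5 (16.1%, against 2.34%), namely Acox2, Cyp2c70, Abcg5, Abcg8 and Nr1i3; Abcg5 and Abcg8 are adjacent and share peaks. The most shared sites were at Ephx1 (8), whose product is an epoxide hydrolase, Scp2 (7), a peroxisomal thiolase and sterol carrier gene, and Abcg8 (6), a sterol exporter gene. The synthesis and conjugation gene Slc27a5 and the bile acid receptor gene Gpbar1 had no shared site.

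Chromatin came from whole liver, so a peak was not assigned to a cell type, and fewer cells with a bound site cannot be told apart from less binding per cell. NCoR peaks around hepatocyte marker genes numbered from 7 (Tat, Serpina1a) to 15 (Alb). The cholangiocyte markers Krt19 and Krt7 had 0, Epcam 2 and Sox9 7, the Kupffer cell markers 0 or 1, the stellate cell markers 1 each, and the endothelial markers Stab2 and Pecam1 10 and 12. Among marker genes of tissues outside liver, Neurod1 had 0, Gfap and Myh6 1 each, and Ins2 3, of which 2 were shared. The part of the non-hepatocyte cells in the peaks described here was not tested.

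The choice of 50 kb sets which peaks were counted. The outermost NCoR peak inside it was 49625 bp from Abcb11, and the nearest ones outside were 51729 bp from Cyp27a1 and 51745 bp from Baat. That Baat peak had SMRT, and shared sites lay 52263 and 53557 bp from Baat. The count of shared sites at Baat therefore depends on the limit. Peaks just outside at Cyp27a1, Fgfr4 (52273 bp) and Cyp7b1 (52807 bp) had no partner.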

How the data were processed

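Positions of SMRT, NCoR and HDAC3 ChIP-seq peaks in livers of fed control mice were analysed (3 lists). According to the methods of the study, the authors aligned single-end reads to mm10 with Bowtie, kept uniquely mapping reads, found peaks with HOMER on pooled triplicates, and kept those that passed thresholds on fold over input and on the false discovery rate, computed with DESeq2 from the counts of each library. The deposited lists hold chromosome, start and end, of constant length within a list (SMRT 212, NCoR 228 and HDAC3 212 bp), so their unit is a genome position; p-values, heights and counts per library were not used here, and depth is not given in the sources used here. Constant lengths and 1 list per protein leave centres and presence as the only measures.

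Peaks were assigned with GENCODE vM21 (basic transcripts) to genes within 50 kb, to the nearest protein-coding TSS, and to partners with centres within 200 bp; start coordinates were taken as deposited. All 60254 peaks fell inside GRCm38 chromosomes, and the HNF4 half-site was in 0.623% of central 50 bp windows against 0.0768% of windows 2 kb away. Shares have exact (Clopper-Pearson) 95% intervals; no test was run. The 10 genes, the wider list and the markers were chosen with earlier results of these data known. All 10 genes were described, and of the wider list those with the most shared sites; the shared-promoter genes and those without a shared site were named after their values were seen. A sequence was extracted for each gene at its shared site nearest to a TSS, or else its nearest NCoR peak, and the printed ones were chosen from these, apart from the Cyp27a1 and Nr1h4 promoter windows, which were added; the Cyp7a1 window is not reported here. Python 3.11.15, numpy 2.4.6 and scipy 1.17.1 were used, and the scripts were tested on simulated data. Alternatives were other window widths, partner distances, promoter definitions, TSS sets, motif windows and mismatch limits.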

Additional observations from a re-analysis of the deposited data

How the results depend on the processing

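Of 36 recomputed summary values, 30 stayed within the interval or the 1.5-fold range of the reported value and 6 moved. The order against all NCoR peaks turned for 2 class shares, which had not been distinguishable from the overall shares: the shared class was 22.8% within 100 kb (24.9% overall), and SMRT without HDAC3 was 2.22% among peaks nearest to 1 of the 10 genes (4.16% overall), an alternative added after seeing the data. Within 10 kb instead of 50 kb the genes held 16 SMRT, 42 NCoR and 24 HDAC3 peaks. With genes of every type, 28 rather than 45 NCoR peaks were nearest to 1 of the 10 genes, with 5 at Cyp7a1 passing to the processed pseudogene Gm11798. A promoter of 5000 bp on either side held 34.1% of the 85 NCoR peaks at the 10 genes. The share over all NCoR peaks is not given at that setting, so no comparison is made. The median excess of NCoR peaks was 3.0 rather than 5.0 when only genes with an NCoR peak were compared. Added after seeing the data, 1000 bp on either side put an NCoR promoter peak at 10 of 10 genes (21.7% of all genes), 5000 bp at 10 (33.1%) and comprehensive transcripts at 9 (20.2%), and 4 genes had a shared promoter site with 5000 bp (7.77%) or partners within 100 bp (2.22%) or 400 bp (2.39%). Of 18 recomputed motif shares 7 moved. In 100 bp windows BCL6/STAT was at 0 (interval 0 to 4.25), against 2.11% of all NCoR windows. There the order turned for NR5A2/ERR (2.35%, against 2.57%) and DR2 (3.53%, against 4.74%). IR1 was at 1.18% with at most 1 mismatch, against 0.603%. No paired analysis was possible because the lists merge 3 libraries each and hold no separate values. For the same reason no replicate could be left out, and lists without a score allowed no stricter threshold. Depth is unknown.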
